A study of Mus musculus with 10 samples.

Results

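The scavenger receptor genes are described here in macrophages of lung metastases and of normal lung. The 9 members, Marco, Msr1, Colec12, Cd36, Scarb1, Cd68, Olr1, Stab1 and Cd163, were chosen by name as receptors of the scavenger family. The choice used no rule on measured values, but earlier results of these data were known. They were 9 of 24538 genes in the count files. All 9 passed the filter on low expression, a mean FPKM (fragments scaled by transcript length and sequencing depth) of at least 1 in either group, and were among the 11571 genes tested.

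Scavenger receptors are membrane proteins that bind a broad range of polyanionic or modified ligands, such as oxidized lipoproteins, bacterial cell wall components, dying cells and haemoglobin complexes, and carry most of them into the cell for degradation. They are grouped into classes by structure and share little sequence between classes. In the lung, alveolar macrophages use such receptors to clear inhaled particles and spent surfactant, while tissue macrophages elsewhere use them to take up lipoproteins, debris and matrix.

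RNA-seq was performed on 5 libraries of metastasis-associated macrophages (MAMs) and 5 of resident alveolar macrophages (RAMs), all from wild type C57BL6/J mice aged 8 to 10 weeks. MAMs came from metastases seeded by tail vein injection of E0771-LG cells, a mouse mammary tumor line, into females aged 6 to 8 weeks, dissected and pooled from 2 to 4 mice. RAMs came from lungs of mice without tumor. Both were sorted as large CD45+ LY6C- MRC1+ macrophages after digestion with transcription inhibitors, and MAMs were the CD11B+CD11C- and RAMs the CD11B-CD11C+ subset. Tissue, tumor, gate and dissection therefore differed together between the groups, and their parts in any difference below cannot be told apart. The labels number the replicates without tying them to mice, so p-values measure the spread between these libraries, part of which may be technical.

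Counts on genes ran from 55391447 to 87523247 per MAM library and from 50746305 to 72150650 per RAM library. The gates were visible in the RNA: Itgam, which encodes CD11B, was at 6270 CPM (counts scaled to a common library size) in MAMs and 64.3 in RAMs, and Itgax, which encodes CD11C, at 171 and 991. The summed level of alveolar macrophage markers was 200 to 248 CPM in MAMs against 11025 to 13909 CPM in RAMs, led by Chil3. That of markers of other macrophages and monocytes was 6706 to 7943 CPM in MAMs against 94.5 to 103 CPM in RAMs, led by C1qb. Of the alveolar markers, the median level left in MAMs was 1.16% of that in RAMs, and of the other macrophage markers the median level left in RAMs was 1.19% of that in MAMs. These levels are set beside the receptors that were nearly missing from RAMs.

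Of the 9 genes, 5 were higher in MAMs (Msr1, Cd36, Cd163, Stab1 and Cd68) and 2 were lower (Scarb1 and Olr1) at an adjusted p under 0.05 (edgeR), while Marco and Colec12 did not pass. Among all genes tested, 28.9% passed in the higher and 27.3% in the lower direction. Changes over 2-fold were found for 4 members in the higher direction, against 15.3% of all genes, and for 2 in the lower, against 15.1%. The libraries of the groups did not overlap for 7 members, against 44.9% of all genes. The median log2 fold change of MAMs over RAMs was 0.84 for the members and -0.01 for all genes. In sorted cells, a lower value can mean fewer cells that express a gene or less RNA per cell, and these cannot be told apart.

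**Figure D1:**
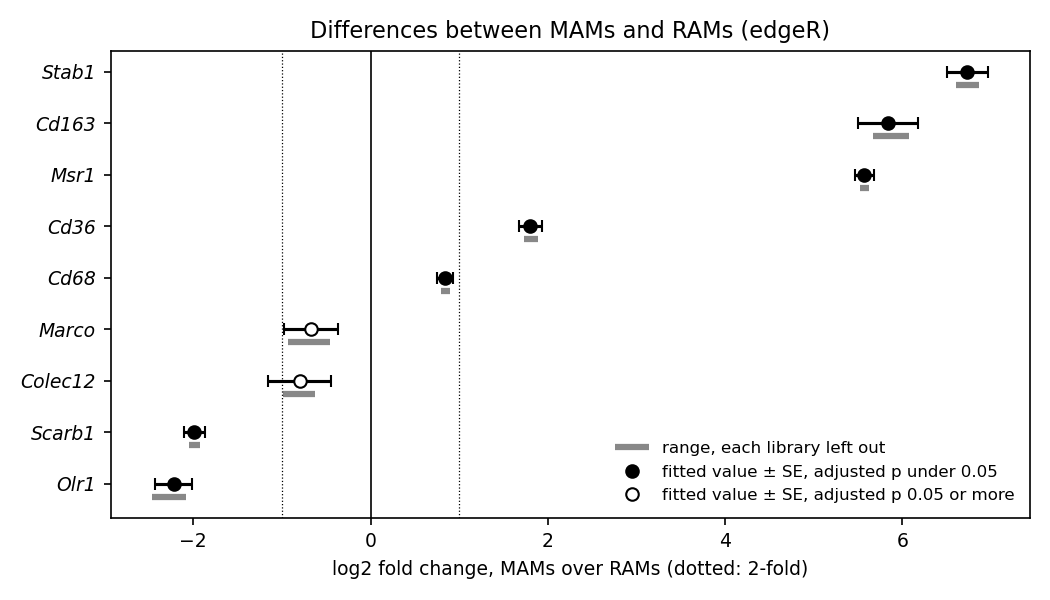
Fitted log2 fold change of MAMs over RAMs with its standard error for each of the 9 genes (horizontal axis), with filled points for an adjusted p under 0.05 and grey bars for the range when each of the 10 libraries was left out in turn. Stab1, Cd163 and Msr1 lay above 5 on the log2 scale, Scarb1 and Olr1 near -2, and the bars of Marco and Colec12 stayed below 0.

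Stab1, Cd163 and Msr1 had the largest differences in favor of MAMs, and Olr1 the largest in favor of RAMs. The bases upstream of the annotated start of Stab1, Cd163 and Olr1 are shown because these genes had the largest differences in each direction among members with an entry in the promoter table. The sequences are from RefSeq on GRCm38.p6, 250 bases each, 5′ to 3′ on the strand of the gene: chr14:31168642-31168891 on the minus strand for Stab1, chr6:124304401-124304650 on the plus strand for Cd163 and chr6:129507166-129507415 on the minus strand for Olr1. Capitals mark matches to the motifs searched.
Stab1: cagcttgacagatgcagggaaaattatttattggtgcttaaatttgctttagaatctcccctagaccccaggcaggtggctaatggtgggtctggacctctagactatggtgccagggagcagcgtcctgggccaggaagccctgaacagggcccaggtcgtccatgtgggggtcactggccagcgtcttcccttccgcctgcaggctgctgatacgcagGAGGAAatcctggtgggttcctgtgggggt
Cd163: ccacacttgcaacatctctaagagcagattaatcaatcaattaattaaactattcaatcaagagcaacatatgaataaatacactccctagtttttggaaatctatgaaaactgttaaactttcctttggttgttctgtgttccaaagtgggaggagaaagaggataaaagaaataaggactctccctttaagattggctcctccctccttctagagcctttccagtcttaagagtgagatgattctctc
Olr1: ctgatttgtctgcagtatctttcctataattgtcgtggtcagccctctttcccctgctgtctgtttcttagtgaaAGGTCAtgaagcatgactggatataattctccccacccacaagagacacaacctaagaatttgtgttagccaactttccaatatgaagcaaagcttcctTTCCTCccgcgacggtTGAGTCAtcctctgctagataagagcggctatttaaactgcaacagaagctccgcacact
The motifs were searched on both strands in windows of 300 bases around the start: GAGGAA for PU.1, a regulator of macrophage genes, CACGTG for the E-box, AGGTCA as the core site of nuclear receptors, TGANTCA for AP-1 and GAAANNGAA for interferon response. Stab1 held 1 match, to GAGGAA. Olr1 held 3, which were the nuclear receptor site, the AP-1 site and the PU.1 site on the opposite strand, where it reads TTCCTC. Cd163 held none, in a stretch of 36.8% G and C against 57.2% in Stab1. GAGGAA occurred in 28.1% of 32544 promoter windows and in 4 of the 6 members with a window (Marco, Olr1, Cd68 and Stab1), AGGTCA in 16.2% and in 2, and TGANTCA in 7.79% and in 2. CACGTG (7.17% of windows) and GAAANNGAA (8.53%) were in none of the 6. Such matches describe the letters of a window and do not show a binding site.

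Class A receptors are trimers with a collagen-like stalk. Msr1 (chromosome 8:39581685-39642673, GRCm38), which encodes the receptor for acetylated and oxidized low-density lipoprotein first described in macrophages, was at 2584, 2477, 2251, 2201 and 2212 CPM in MAM replicates 1 to 5. In RAMs it was at 57.5, 45.8, 43.8, 55.6 and 43.7 CPM. All MAM libraries were therefore far above all RAM libraries, and within MAMs the highest library was 1.17 times the lowest. The fold change was 47.6 (log2 5.57 ± 0.11 SE, adjusted p = 5.59e-15, edgeR). The level in RAMs was 2.10% of that in MAMs, above the median of 1.19% for the other macrophage markers. After 1% of the MAM level was subtracted from each RAM library, 949 to 1985 Msr1 counts remained there and the log2 fold change was 6.51. The source of the Msr1 counts in RAMs was not tested.

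Marco (chromosome 1:120474538-120505024), which encodes a receptor for bacteria and unopsonized particles typical of alveolar macrophages, did not pass the test. It was at 389, 320, 213, 89.8 and 149 CPM in MAM replicates 1 to 5 and at 304, 350, 372, 531 and 284 CPM in RAM replicates 1 to 5. The groups overlapped: 3 MAM libraries were below all RAM libraries and 1 was above the RAM mean of 368 CPM. The log2 fold change was -0.67 ± 0.30 (SE, adjusted p = 0.0762, edgeR), and an exact permutation test of FPKM, two-sided over the 10 libraries, gave p = 0.103. The call depended on single libraries. Without MAM replicate 1 the log2 fold change was -0.93 (adjusted p = 0.0121, edgeR), and without MAM replicate 2 it was -0.81 (adjusted p = 0.0479, edgeR), so Marco passed as lower. Under upper-quartile scaling, which lowered the median of all genes by 0.165 on the log2 scale, it was also called lower (-0.84, adjusted p = 0.0260, edgeR).

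MAMs kept 63.0% of the Marco level of RAMs, whereas alveolar markers were kept at 1.01% (Ear1) to 34.7% (Fabp4). The summed alveolar markers were at 209, 219, 248, 236 and 200 CPM in MAM replicates 1 to 5. The library with the lowest Marco level, replicate 4, had the second highest alveolar marker sum. Replicate 1, with the highest Marco level, had the second lowest. The marker sums lay close together, and the part of alveolar macrophages in the Marco level of MAMs was not tested.

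Colec12 (chromosome 18:9707595-9882644), a collectin-type member expressed in vascular cells and known to bind galactose-bearing glycans, was the least abundant member in MAMs. It was at 10.04, 3.75, 7.04, 7.36 and 10.00 CPM in MAMs and at 15.5, 6.13, 7.45, 18.4 and 19.1 CPM in RAMs. The ranges overlapped, with 3 RAM libraries above all MAM libraries and the other 2 among them. The log2 fold change of -0.80 ± 0.35 (SE) did not pass (adjusted p = 0.0689, edgeR). It passed without RAM replicate 2 (-0.99, adjusted p = 0.0230, edgeR) and without RAM replicate 3 (-0.96, adjusted p = 0.0363, edgeR), the lowest libraries of that group. It also passed with the replicate block (-0.73, adjusted p = 0.0284, edgeR), with DESeq2 (-0.79, adjusted p = 0.0473) and under upper-quartile scaling (-0.96), so that the members lower in MAMs numbered 4 under that last scaling, Marco included, against 2 here, with the same number of higher members, 5.

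**Figure D2:**
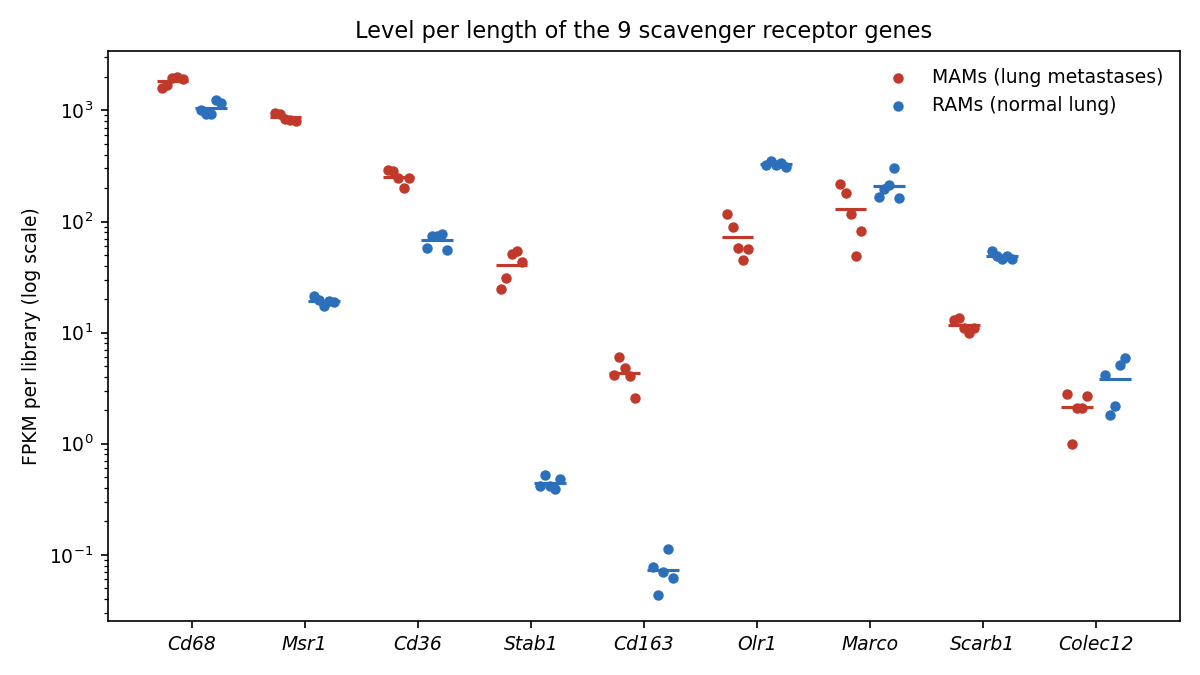
Deposited FPKM of the 9 genes in each library (log axis), with red points for the 5 MAM and blue points for the 5 RAM libraries and a bar at each group mean. The clouds are apart for 7 genes and overlap for Marco and Colec12, and Stab1 and Cd163 are under 1 FPKM in all RAM libraries.

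The 2 class B receptors moved in opposite directions. Cd36 (chromosome 5:17781690-17888801), which encodes a receptor for oxidized lipoproteins, long-chain fatty acids and thrombospondin, was at 1252, 1191, 1045, 832 and 1060 CPM in MAMs and at 258, 331, 332, 369 and 251 CPM in RAMs. It was higher in all MAM libraries, 3.49-fold (log2 1.80 ± 0.13 SE, adjusted p = 9.20e-09, edgeR). Scarb1 (chromosome 5:125277087-125341094), which encodes SR-BI, the receptor through which cells exchange cholesterol with high-density lipoprotein, was at 31.0, 30.7, 24.0, 22.04 and 26.9 CPM in MAMs. In RAMs it was at 125, 108, 98.5, 106 and 98.7 CPM. Each RAM library was thus above each MAM library, and the gene was 3.97-fold lower in MAMs (log2 -1.99 ± 0.12 SE, adjusted p = 1.72e-09, edgeR).

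Within a library, the FPKM of Cd36 was 20.2 to 22.5 times that of Scarb1 in MAMs and 1.06 to 1.60 times in RAMs. With CPM per exon length in place of FPKM it was 89.4 to 103 in MAMs and 4.89 to 8.27 in RAMs, so the size of the ratio depends on the length used and its direction between the groups does not. The ratio of FPKM was steady among MAMs, with an SD of 0.0698 on the log2 scale. Each gene alone varied more there (SD of log2 CPM 0.23 for Cd36 and 0.22 for Scarb1). Among RAMs the SD of the ratio was 0.267, and that of log2 CPM was 0.246 for Cd36 and 0.139 for Scarb1.

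Stab1 and Cd163 were nearly missing from RAMs. Stab1 (chromosome 14:31139013-31168641), which encodes stabilin-1, a class H endocytic receptor of tissue macrophages and sinusoidal endothelium that takes up modified lipoproteins and the matrix protein SPARC, was at 227, 279, 458, 502 and 394 CPM in MAM replicates 1 to 5. In RAMs it was at 3.78, 3.96, 2.84, 3.49 and 3.35 CPM. The difference, 106-fold, was the largest of the 9 (log2 6.73 ± 0.23 SE, adjusted p = 2.76e-12, edgeR). With log2(FPKM + 1) in limma the value was 4.80. The RAM level was 0.936% of the MAM level, below the median of 1.19% for the other macrophage markers. After subtraction of 1% of the MAM level, 4, 16, 0, 0 and 0 Stab1 counts remained in RAM replicates 1 to 5. The fitted log2 fold change was then 12.27, a value set by the prior count where libraries are at 0. The 1% was a chosen value, and the other macrophage markers were left in RAMs at 0.892% to 4.61%. The source of the Stab1 counts in RAMs was not tested. Exons of Stab1 share 112 bases with Nt5dc2 on the opposite strand, and whether the counting used strand is not given in the sources used here.

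Cd163 (chromosome 6:124304656-124330527), which encodes the class I receptor for complexes of haemoglobin and haptoglobin, was at 23.5, 31.4, 26.2, 23.6 and 14.5 CPM in MAMs and at 0.668, 0.2402, 0.393, 0.480 and 0.298 CPM in RAMs. Even the lowest MAM library exceeded the highest RAM library by far, and the fold change was 57.0 (log2 5.83 ± 0.34 SE, adjusted p = 1.04e-09, edgeR). With log2(FPKM + 1) in limma the value was 2.28, since the pseudocount exceeds the RAM level. The RAM level was 1.74% of the MAM level. After the subtraction, 25, 0, 7, 12 and 3 counts remained in RAMs (log2 fold change 7.06, also dependent on the prior count). The source of the Cd163 counts in RAMs was not tested.

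Endothelial cells also express Stab1, so their markers were examined. They summed to 72.9 to 187 CPM in MAMs and 131 to 217 CPM in RAMs, where Vwf made up most of the sum. Without Vwf the sum was 66.6 to 166 CPM in MAMs against 5.98 to 16.3 CPM in RAMs. In MAMs it was led by Lyve1, Kdr and Pecam1. Of 5 tested markers of 10, Pecam1, Cdh5, Kdr and Lyve1 were higher in MAMs and Vwf was lower. Kdr was at 29.0 CPM in MAMs and 0.948 in RAMs (log2 4.93), Pecam1 at 16.6 and 2.28 CPM, and Cdh5 at 7.28 and 2.60 CPM. Lyve1, which some macrophages express as well, was at 27.9 to 106 CPM in MAMs and 1.40 to 4.400 CPM in RAMs. The untested markers Tek, Tie1, Emcn, Cldn5 and Egfl7 were at most at 1.54 CPM in any library. Of these, Tek, Tie1, Cldn5 and Egfl7 were lower on average in MAMs than in RAMs, and Emcn was not. Platelets carry CD36, and platelet markers summed to 348 to 1047 CPM in MAMs and 9.54 to 16.3 CPM in RAMs. In MAMs nearly all of the sum came from Pf4 and Ppbp. In RAMs Pf4 was at 6.2 CPM and Ppbp at 2.3 CPM. The other platelet markers, Itga2b, Gp9 and Gp1bb, were at 1.68, 0.81 and 0.018 CPM in MAMs and at 3.34, 0.880 and 0 CPM in RAMs. Of these only Gp9 was tested, and it did not pass (adjusted p = 0.921, edgeR). The part of these cells in the levels of Stab1 and Cd36 was not tested.

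Cd68 and Olr1 differ in site and ligand. Cd68 (chromosome 11:69664213-69666153), the class D member, encodes a heavily glycosylated protein of lysosomes and endosomes that is used as a general macrophage marker. It was at 1694, 1730, 2045, 2073 and 2013 CPM in MAMs and at 1063, 941, 944, 1222 and 1158 CPM in RAMs. All MAM libraries were above all RAM libraries, but the change of 1.79-fold was under 2-fold (log2 0.84 ± 0.09 SE, adjusted p = 1.07e-06, edgeR).

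Olr1 (chromosome 6:129485244-129507165), the class E member, encodes LOX-1, a lectin-like receptor for oxidized low-density lipoprotein best known from endothelium. It was at 431, 324, 208, 161 and 210 CPM in MAM replicates 1 to 5 and at 1203, 1324, 1209, 1288 and 1200 CPM in RAM replicates 1 to 5. It was 4.66-fold lower in MAMs (log2 -2.22 ± 0.21 SE, adjusted p = 2.81e-07, edgeR), with no overlap. The RAM libraries were almost level, the highest being 1.10 times the lowest, and only 3.3% of tested genes had a smaller SD among RAMs. The MAM libraries spanned a factor of 2.67. For the 7 members that passed, the exact permutation test of FPKM gave p = 0.00794 (two-sided), the smallest that 5 against 5 libraries allow.

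Per length, Cd68 was the most abundant member in both groups, at 1834 ± 177 FPKM in MAMs and 1059 ± 140 in RAMs (SD, n = 5). Below it the order differed. In MAMs the order by mean FPKM was Msr1 (869), Cd36 (254), Marco (129), Olr1 (72.7), Stab1 (40.8), Scarb1 (11.7), Cd163 (4.34) and Colec12 (2.13). Library ranges overlapped between Cd36 and Marco, Marco and Olr1, Olr1 and Stab1, and Cd163 and Colec12, so these neighbours were not separated by their ranges. Within a library, Cd36 was above Marco and Marco above Olr1 in all 5 MAM libraries, and each of the other pairs kept this order in 4 of 5. In RAMs the order was Olr1 (330), Marco (208), Cd36 (67.8), Scarb1 (48.8), Msr1 (19.2), Colec12 (3.84), Stab1 (0.446) and Cd163 (0.0728), with all neighbours apart and in this order in all 5 libraries. When CPM was divided by the length of all annotated exons instead, Cd163 and Scarb1 changed places in MAMs and no other member moved.

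After Cd68, Msr1 therefore ranked highest in MAMs, and Olr1 and Marco in RAMs. Msr1 made up 27.0% ± 1.92 of the summed FPKM of the 9 genes in MAMs and 1.12% ± 0.135 in RAMs (SD, n = 5). With CPM per exon length its MAM share was 15.2%. Olr1 made up 2.26% ± 0.908 in MAMs and 19.2% ± 2.00 in RAMs, and Marco 4.00% ± 2.13 and 11.9% ± 2.23. Cd68 held a similar share of both, 57.0% ± 5.60 and 60.8% ± 3.43. Without Cd68, Msr1 and Cd36 made up 63.2% and 18.4% in MAMs, and Olr1 and Marco 49.0% and 30.3% in RAMs. With CPM per exon length the shares without Cd68 were 41.2% for Msr1 and 33.1% for Cd36 in MAMs, and 54.2% for Olr1 and 29.2% for Marco in RAMs.

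**Figure D3:**
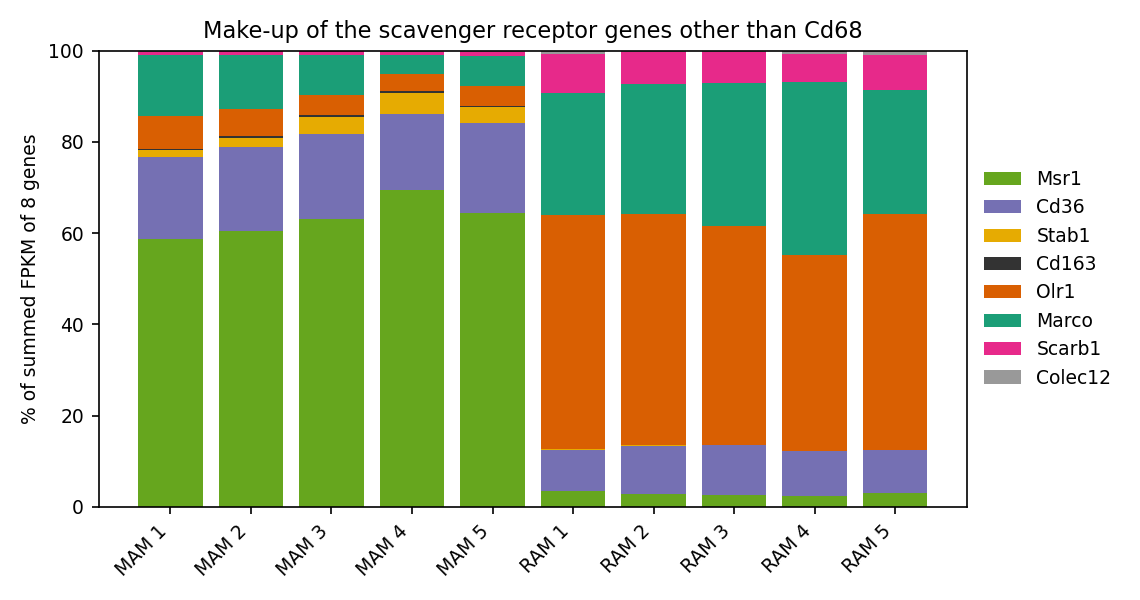
Share of each gene in the summed FPKM of the 8 genes other than Cd68 (vertical axis, percent), 1 bar per library. Msr1 (green) and Cd36 (violet) fill most of each MAM bar, and Olr1 (orange) and Marco (teal) most of each RAM bar.

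The ratio of 2 receptors within a library does not depend on sequencing depth. Msr1 exceeded Marco by 4.401 to 16.8 times in MAMs (median 7.198), and was 0.0641 to 0.127 times Marco in RAMs. Msr1 was 8.20 to 18.4 times Olr1 in MAMs and 0.0530 to 0.0658 times in RAMs. Cd36 was 2.52 to 4.44 times Olr1 in MAMs and 0.178 to 0.230 times in RAMs. With CPM per exon length the medians for Msr1 were lower, 3.21 times Marco and 5.93 times Olr1 in MAMs. The ranges of these ratios did not meet between the groups with either length. The ratio of Stab1 to Cd163 overlapped, at 5.16 to 16.6 in MAMs and 3.51 to 12.1 in RAMs.

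Some members varied widely among MAM libraries. The SD of log2 CPM among MAMs was 0.85 for Marco, more than for 89.3% of tested genes, 0.58 for Colec12, 0.57 for Olr1 and 0.49 for Stab1, where the median gene had 0.28. Among RAMs, Marco, Olr1 and Stab1 had less, 0.35, 0.07 and 0.19, and so did Scarb1, 0.14 against 0.22. Colec12 and Cd163 had more among RAMs than among MAMs, 0.77 against 0.58 and 0.53 against 0.41. So did Msr1 (0.19 against 0.11), Cd36 (0.25 against 0.23) and Cd68 (0.17 against 0.14). The Cd163 value among RAMs rests on 14 to 39 counts per library. The median gene had 0.24 among RAMs, and the difference in spread between the groups was not tested. Msr1 had 0.11 among MAMs, and 9.2% of genes had less. MAM replicate 1 was the highest and replicate 2 the second highest for Marco, Msr1, Cd36, Scarb1 and Olr1. Stab1 and Cd68 had the reverse pattern, lowest in replicate 1, second lowest in replicate 2 and highest in replicate 4, the library that was lowest for those 5 genes. Among RAMs, Marco and Cd36 ranked the libraries alike, highest in replicate 4.

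**Figure D4:**
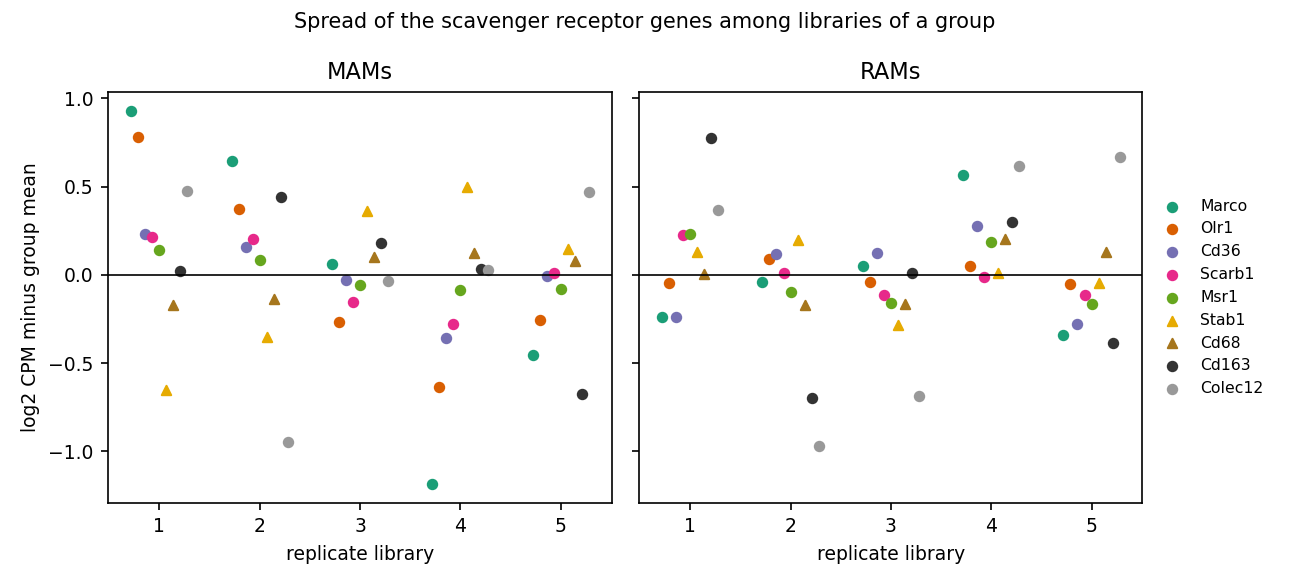
Deviation of log2 CPM from the group mean for each of the 9 genes in each replicate library, MAMs on the left and RAMs on the right, with triangles for Stab1 and Cd68. In MAMs, Marco and Olr1 lie above 0 in replicates 1 and 2 and lowest in replicate 4, while the triangles lie below 0 in replicates 1 and 2 and above it in the others.

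Genes whose pattern over the 10 libraries was like that of each member were found by the root mean square difference of log2 CPM after centring. The nearest gene was Nrp2 for Cd68 (0.060), Ptpn12 for Scarb1 (0.125), Nfia for Olr1 (0.115) and Slc25a37 for Cd36 (0.123). Next came Snx5 (0.084), Shtn1 (0.132), Mgst1 (0.205) and Evi2a (0.150), in the same order of members. Irf7 was at a distance of 0.232 from Msr1. Stab1 was nearest to Mmp14 (0.213) and Ccl7 (0.228), and Cd163 to Msr1 (0.351) and Csf1 (0.383). Marco was nearest to 4933428G20Rik (0.220) and F8a (0.303), and Colec12 to 2810025M15Rik (0.313) and Glcci1 (0.331). The distances include the difference between the 2 groups.

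Of 22 further receptors and soluble proteins with scavenger activity, 11 were tested, of which 6 were higher in MAMs and 3 lower, with a median log2 fold change of 1.56. All 6 higher genes and none of the lower ones changed over 2-fold. Of all genes tested, 28.9% were higher and 27.3% lower, and 15.3% and 15.1% changed over 2-fold in these directions. Cd5l, a secreted macrophage protein with scavenger receptor cysteine-rich domains, was at 209 CPM in MAMs and 1.73 in RAMs (log2 fold change 6.92). Cxcl16, the membrane-bound chemokine that also binds oxidized lipoprotein, was at 169 and 4.74 CPM (5.17). Lgals3bp was at 2125 and 266 CPM (2.998), Cd14, the lipopolysaccharide co-receptor, at 777 and 130 CPM (2.58), and Scarf1 at 16.8 and 3.24 CPM (2.37). Ssc4d was low, 1.23 to 5.25 CPM in MAMs against 0.313 to 2.67 CPM in RAMs. It passed narrowly (log2 1.56, adjusted p = 0.0452, edgeR) and did not pass without MAM replicate 1, 2 or 5 or without RAM replicate 2, 3, 4 or 5 (log2 1.32 to 1.60). The 3 lower genes were Cd44, the hyaluronan receptor (log2 -0.94), Mrc1, the mannose receptor (-0.90), and Scarb2, the lysosomal relative of Cd36 (-0.83). MRC1 was also a sorting marker of both groups. Lrp1, the endocytic receptor most abundant in this list, was at 3490 CPM in MAMs and 3517 in RAMs (-0.01, adjusted p = 0.911, edgeR), and Ager did not pass either (-1.29, adjusted p = 0.107, edgeR).

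**Figure D5:**
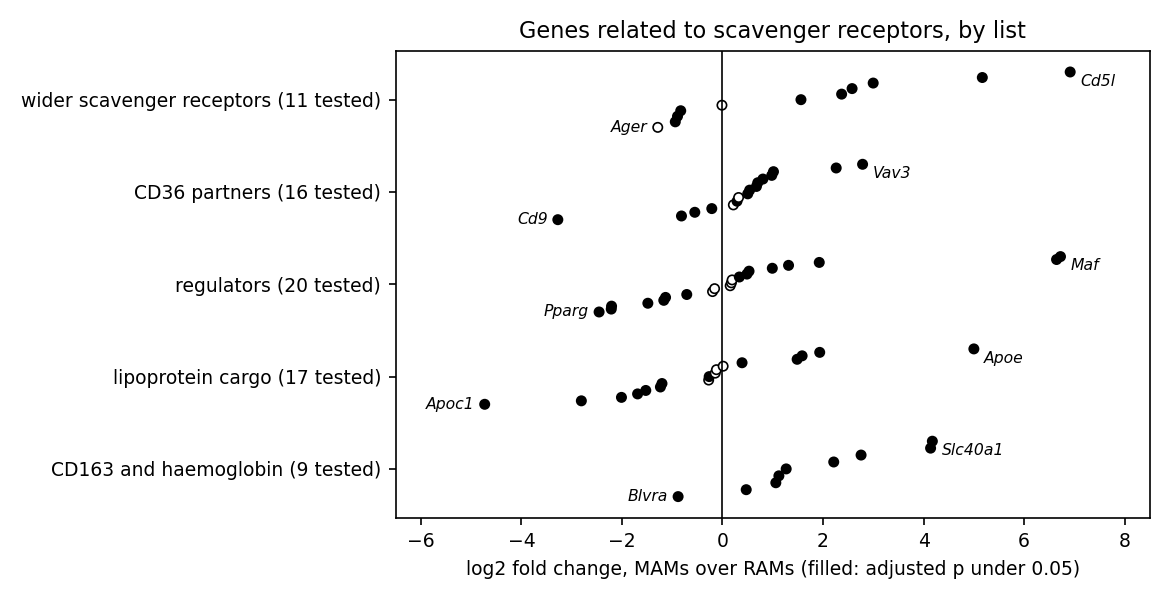
Log2 fold change of MAMs over RAMs (horizontal axis) for each tested gene of 5 lists related to scavenger receptors, 1 point per gene, filled where the adjusted p was under 0.05, with the highest and lowest gene of each list named. The points of the CD163 and haemoglobin list lie to the right of 0 except Blvra, while the other lists spread to both sides.

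Genes that act with CD163 in the handling of haemoglobin and iron were mostly higher in MAMs. Of 9 tested of 10, 8 were higher, 7 of them over 2-fold, and 1 was lower (median log2 fold change 1.27). The shares over all genes were 28.9% higher, 15.3% over 2-fold higher and 27.3% lower. Hmox1, the heme oxygenase that opens the heme ring, was at 2880 CPM in MAMs and 163 in RAMs (log2 4.14), and Slc40a1, the iron exporter ferroportin, at 93.8 and 5.20 CPM (4.17). Hp, haptoglobin itself, was low in both, 7.68 and 1.14 CPM (2.76), and Fth1, a ferritin subunit, was the most abundant of the list (1.12). The lower gene was Blvra, a biliverdin reductase (-0.88). Markers of red cells summed to 2.17 to 5.19 CPM in MAMs and 1.27 to 5.28 CPM in RAMs, all from Alas2, which was not tested. The 3 globin genes of that list were counted at 0 in all 10 libraries. Only uniquely mapped reads were counted, so these counts cannot show whether globin RNA was absent.

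Kinases, adaptors, Toll-like receptors and tetraspanins that work with CD36 gave a mixed picture. Of 16 tested, 10 were higher and 4 lower in MAMs, and 3 and 1 changed over 2-fold (median log2 fold change 0.52). The share over 2-fold higher was thus near the 15.3% of all genes. For the other counts, the shares of all genes were 28.9% higher, 27.3% lower and 15.1% over 2-fold lower. The exchange factor Vav3 was at 148 CPM in MAMs and 21.4 in RAMs (2.79), and the kinase Src at 3.89 and 0.810 CPM (2.26). The tetraspanin Cd9 was at 102 CPM in MAMs and 986 in RAMs (-3.28). Fcer1g, the signaling chain with the highest level of the list, was at 1802 and 914 CPM (0.98).

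The 20 transcription factors known to act on macrophage genes or lipid uptake were all tested. Of these, 8 were higher and 7 lower in MAMs, with 4 and 6 over 2-fold (median 0.17). Across all genes these shares were 28.9% and 27.3%, with 15.3% and 15.1% over 2-fold. Maf, which many tissue macrophages outside the alveoli express, was at 292 CPM in MAMs and 2.77 CPM in RAMs (log2 6.72). Pparg, the lipid-sensing receptor required by alveolar macrophages and an activator of Cd36, was at 36.6 CPM in MAMs and 201 in RAMs (-2.45). This was opposite in direction to Cd36. The part of Pparg or of any other listed factor in the level of Cd36 was not tested.

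Genes of lipoprotein and lipid handling were likewise divided. Of 17 tested of 18, 5 were higher and 8 lower in MAMs, with 4 and 7 over 2-fold (median -0.27). The corresponding shares of all genes were 28.9% and 27.3%, with 15.3% and 15.1% over 2-fold. Apoe was at 943 CPM in MAMs and 29.4 in RAMs (log2 5.00), whereas Apoc1, its neighbour on chromosome 7, was at 0.483 and 12.98 CPM (-4.73). Abcg1, which exports cholesterol to high-density lipoprotein, was at 456 CPM in MAMs and 3192 in RAMs (-2.81).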

How the data were processed

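The authors aligned reads to GRCm38 with TopHat2 2.0.13, counted uniquely mapped reads with HTSeq 0.6.1 and deposited these counts as 1 table for each library. FPKM from Cufflinks 2.2.1 were deposited by the authors in a further table. Library sizes excluded lines without a gene name, such as reads outside genes or mapped more than once, which held 56.5% ± 1.65 of lines in MAMs and 63.2% ± 0.898 in RAMs (SD, n = 5). TMM factors were 0.897 to 0.943 in MAMs and 1.07 to 1.10 in RAMs. A count of 0 allows up to 3 counts, for counting error only.

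Testing covered 11571 genes, those reaching an average of 1 FPKM in MAMs or RAMs and having any count. MAMs were compared with RAMs by the quasi-likelihood test of edgeR 4.0.16 (R 4.3.3) with TMM normalization, no covariate and Benjamini-Hochberg adjustment over all genes tested, and CPM use TMM library sizes. Alternatives were DESeq2 1.42.0, limma 3.58.1 on log2(FPKM + 1) and log2(FPKM + 0.1), RLE and upper-quartile scaling, other filters, a replicate block, a test against a fold change of 2, subtraction of 1% of the other group's level, and each library left out. CPM per exon length in place of FPKM for ratios, and for shares without Cd68, was chosen after seeing the data. Positions are from GENCODE M21. The promoter table held 6 of the 9 members.

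All 9 members were named, with each called gene of the wider receptor list, the 3 largest called changes of the other lists, the most abundant gene of a list, the 2 genes most like each member and the sorting markers. Fth1 and Fcer1g were named as most abundant. Some genes that this rule names are not reported here. Blvra, Lrp1, Ager, Nt5dc2 and markers other than the most abundant of a cell type were named after their values were seen. The members and lists were chosen with earlier results of these data known. Lists of markers for the remaining cell types gave summed CPM, in MAMs and RAMs, of 3.52 to 40.9 and 0.311 to 6.61 for stroma (Col3a1), 9.84 to 24.1 and 589 to 702 for epithelium and tumor (Krt19), 0.996 to 12.5 and 21.6 to 43.2 for lung epithelium (Sftpc), 23.2 to 83.1 and 42.9 to 87.3 for neutrophils (Mmp8), 3.31 to 8.30 and 17.0 to 25.4 for dendritic cells (Clec9a), 5.16 to 17.8 and 3.77 to 18.7 for lymphocytes (Cd79a), 124 to 177 and 784 to 1029 for proliferating cells (Mki67), and 18382 to 25366 and 27039 to 34204 for all macrophages (Lyz2). In RAMs the sum for epithelium and tumor came from Krt19, Cdh1 and Epcam, at 436, 131 and 76.8 CPM. Krt8, Krt18 and Krt14 were at 0.045, 0.12 and 0 CPM there. Which cells gave these levels was not tested.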

Additional observations from a re-analysis of the deposited data

How the results depend on the processing

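No alternative reversed the direction of a member. Msr1, Cd36, Cd163, Scarb1, Stab1 and Olr1 passed under all 20 alternatives, and Cd68 under all but the test against a fold change of 2 (log2 0.84). The log2 fold change of Marco ran from -0.93 to -0.46 and that of Colec12 from -0.99 to -0.63 when single libraries were left out. Under upper-quartile scaling Marco was at -0.84 and Colec12 at -0.96 and both passed, which raised the members lower in MAMs to 4. Colec12 also passed with DESeq2 (-0.79, adjusted p = 0.0473) and with the replicate block (-0.73, adjusted p = 0.0284, edgeR). The replicate block changed no other member's call. Same-numbered libraries showed no strong shared shift of log2 CPM from their group means, with correlations of -0.037 to 0.029 over 5 pairs. These values cannot show whether such libraries were handled together. With the test against a fold change of 2, the lists gave 0 lower wider receptors, 2 higher and 1 lower CD36 partners, 4 higher and 4 lower regulators, and 5 higher and 0 lower haemoglobin genes, as the construction of that test allows fewer calls. Of the values for single other genes, ranks, ratios and shares, 375 were the same, 15 no longer passed (Ssc4d, Cd44, Mrc1 and Scarb2) and 48, all ranks, ratios or shares, moved. Depth did not limit the members, whose counts exceeded 3 in every library.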
